A study of Mus musculus with 8 samples.

Results

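The 4 control libraries of this study, 2 labelled Mettl3 WT and 2 labelled Virma WT, were chosen by their titles and set against each other; they are 4 of the 8 libraries of the series. Total RNA was sequenced from mouse embryonic stem cells in culture medium meant to induce primitive endoderm, and each of 2 lines, named after the m6A writer genes Mettl3 and Virma, has a control (WT) and a conditional knockout (cKO) group of 2 libraries. All 4 control libraries carry the genotype label WT and the same medium, while the sources used here do not give the alleles, recombinase, inducing agent, strain or clone of either line; the labels carry the mark D2 without explaining it. Of 21812 gene symbols, 12910 passed a filter on low values, which asked for at least 25 in both libraries of at least 1 of the 4 groups, and were tested. The labels' protocols name 2 library kits without saying which made each library, so line, culture and library preparation cannot be told apart. Nothing in the labels says that the libraries of a group came from separate cultures, so p-values reflect only how far these libraries spread, and that spread may be technical.

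Primitive endoderm is the layer of the late blastocyst that faces the cavity and forms the visceral and parietal endoderm of the yolk sac, while the neighbouring epiblast forms the embryo. In the inner cell mass FGF signalling through ERK favours Gata6 over Nanog, and Gata4, Sox17 and Sox7 follow. The cells then make a basement membrane of laminin and collagen IV and the endocytic receptors with which visceral endoderm takes up maternal protein. In bulk RNA fewer cells of a type and less RNA per cell cannot be told apart.

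The deposited values are whole numbers, but not reads. Their upper quartile was 602 in each of the 4 control libraries, and in Mettl3 WT whole numbers were skipped at regular steps: of the numbers 1 to 60, 23 occurred in the first library and 21 in the second, against all 60 in both Virma WT libraries. The spacing gave factors of 2.55 and 2.76 per read in Mettl3 WT and of 0.676 and 0.689 in Virma WT, which give estimated depths of 6702210 and 6199853 reads against 25606079 and 25014451. The values are called scaled counts below, and totals of scaled counts were 17082726 and 17107106 in Mettl3 WT and 17306227 and 17235657 in Virma WT. The same value thus rests on fewer reads in Mettl3 WT, and its counting error is wider there than in Virma WT. As deposited, 15452 and 15415 genes were detected in Mettl3 WT and 16813 in each Virma WT library; expected numbers at the depth of the shallowest library were 15379 and 15415 against 15459 and 15481.

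**Figure D1:**
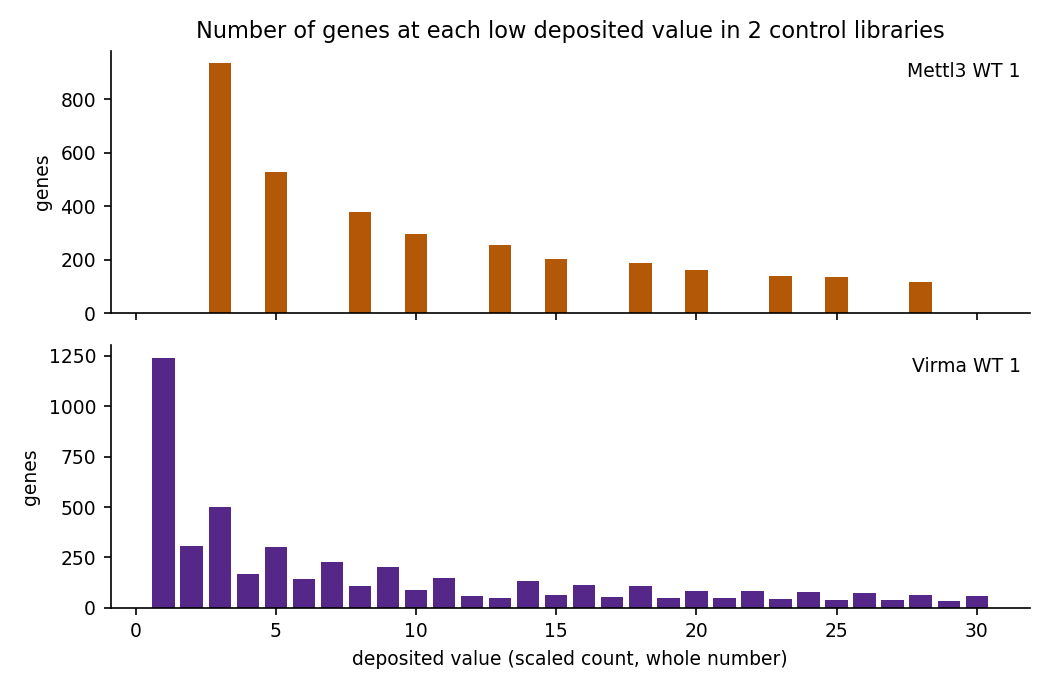
Number of genes (vertical axis) at each deposited value from 1 to 30 (horizontal axis) in the first library of each control group. In Mettl3 WT 1 the lowest value above 0 is 3 and 19 of the 30 numbers hold no gene, while every number is filled in Virma WT 1, whose factor lies below 1.

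The genes that name the lines were measured first. Mettl3, the catalytic subunit of the m6A writer, stood at 596 and 588 scaled counts in Mettl3 WT and at 768 and 742 in Virma WT. It was higher in Virma WT by a log2 fold change of 0.35 (SE 0.08; limma, Benjamini-Hochberg adjusted p = 0.00026). The libraries labelled Mettl3 cKO held 588 and 560, and those labelled Virma cKO 565 and 552. The sources used here do not say which exons the knockouts remove, so a count over a whole gene is no firm check of either label. Virma, a scaffold of the complex, stood at 1613 and 1736 in Mettl3 WT and at 1564 and 1488 in Virma WT, with 1797 and 1730 in Mettl3 cKO and 1173 and 1214 in Virma cKO. Its difference between the controls, −0.13 (SE 0.05), passed the test (adjusted p = 0.035), and did not without the second Mettl3 WT library (−0.08, limma adjusted p = 0.41) or the second Virma WT library (−0.10, limma adjusted p = 0.16).

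Over all genes tested, 6091 of 12910 (47.2%) differed between the control groups at an adjusted p of 0.05 in limma, 3262 higher (25.3%) and 2829 lower (21.9%) in Virma WT. Each list below is read against these shares. Without the first Mettl3 WT library 2105 genes were higher and 2082 lower. The median absolute log2 fold change of the genes called was 0.38, and 569 genes (4.41%) also differed by at least 2-fold, 382 higher and 187 lower. The median over all genes tested was 0.03. The libraries of the groups did not overlap for 9501 genes (73.6%), which is the background for every count of that kind below. The root mean square log2 difference was 0.48 to 0.49 between a Mettl3 WT and a Virma WT library, against 0.27 within Mettl3 WT and 0.14 within Virma WT. Between control and cKO libraries of a line it was 0.49 to 0.50 for Mettl3 and 0.59 for Virma.

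Genes of chromosomes 6 and 8 were lower in Virma WT along their whole length, while the other autosomes and the X chromosome centred near 0. On chromosome 6, 364 of 604 tested genes (60.3%) were lower in Virma WT and 58 (9.60%) higher, with a median log2 fold change of −0.33 and quartiles of −0.54 and −0.06. On chromosome 8, 425 of 704 (60.4%) were lower and 41 (5.82%) were higher; the median was −0.29, between quartiles of −0.49 and −0.09. Among the 17 other autosomes medians lay between −0.02 and 0.10 and 12.1 to 24.6% of genes were lower; the X chromosome, with 438 genes, had a median of 0.08 and 15.5% lower. Set against the other autosomes together, the median gene in Virma WT stood at 0.766 of its Mettl3 WT level on chromosome 6 and at 0.789 on chromosome 8. These 2 chromosomes hold 10.1% of the genes tested and 27.9% of the genes called lower, 789 of 2829. Outside them 3163 genes were higher and 2040 lower.

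**Figure D2:**
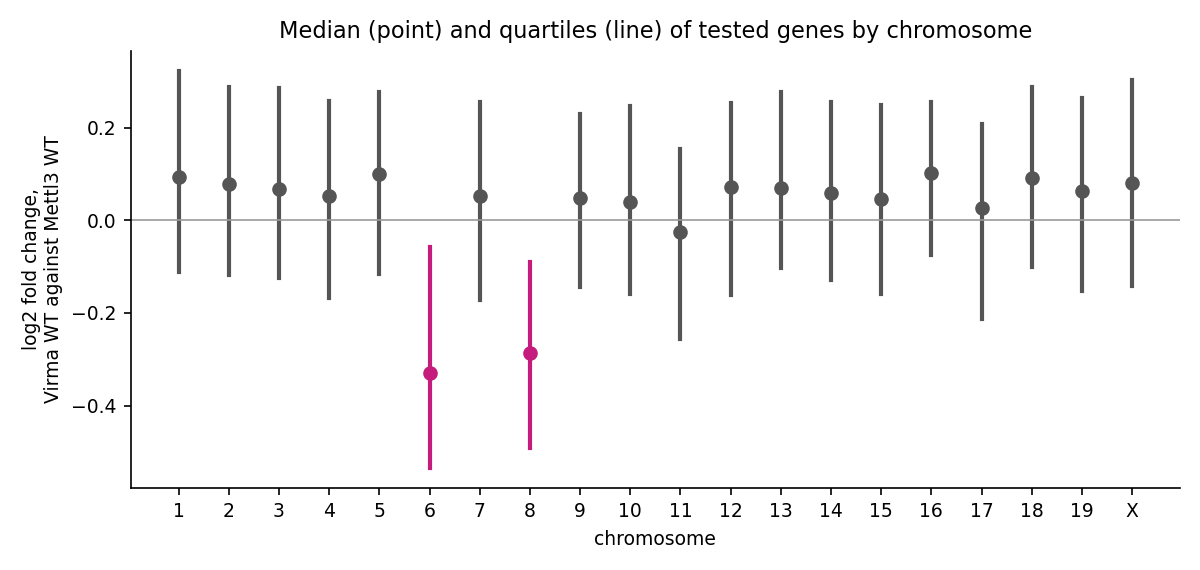
Median log2 fold change, Virma WT against Mettl3 WT (points), and quartiles (lines) of the tested genes of each autosome and the X chromosome, with positive values higher in Virma WT. Chromosomes 6 and 8 have medians of −0.33 and −0.29, below the median of every other chromosome drawn.

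Gene order along the chromosomes was taken from GENCODE M21 on GRCm38, with each chromosome cut into 10 runs of equal gene number; the submitters' processing notes name mm39, so no coordinates are given. All 10 runs of chromosome 6 had medians between −0.44 and −0.24, and all 10 of chromosome 8 between −0.37 and −0.24. Of the 170 runs of the other autosomes, 2 lay at −0.10 or below, the 8th run of chromosome 11 (−0.12) and the first of chromosome 19 (−0.10). In each run of chromosomes 6 and 8 between 49.2 and 78.7% of genes were lower in Virma WT, and in no run elsewhere more than 37.5%.

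The 2 libraries of each control group gave like medians for these chromosomes. Levels were centred on the mean of the 4 control libraries and on the median gene of each library. Opposite signs in the control groups follow from that centre and do not show which line departed. The chromosome 6 median was 0.18 in both Mettl3 WT libraries and −0.18 in both Virma WT libraries, and that of chromosome 8 was 0.15 and 0.17 against −0.16 in both; the other autosomes lay between −0.04 and 0.05. The cKO libraries, which had no part in that centre, lay on the side of their own line: 0.09 and 0.10 on chromosome 6 and 0.15 and 0.16 on chromosome 8 in Mettl3 cKO, and −0.14 and −0.12 on chromosome 6 and −0.21 and −0.22 on chromosome 8 in Virma cKO. The other autosomes spread from −0.18 to 0.14 in the Mettl3 cKO libraries and from −0.09 to 0.11 in Virma cKO, so the values of Mettl3 cKO on chromosome 6 lay inside that spread. Over the 23 other settings of the fit the median of chromosome 6 ran from −0.35 to −0.31 and that of chromosome 8 from −0.30 to −0.28. Removing a trend with gene length and GC content left them at −0.34 and −0.28, and thinning all libraries to the shallowest at −0.34 and −0.30. Only RNA was measured, and the copy number of the chromosomes in either line was not.

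**Figure D3:**
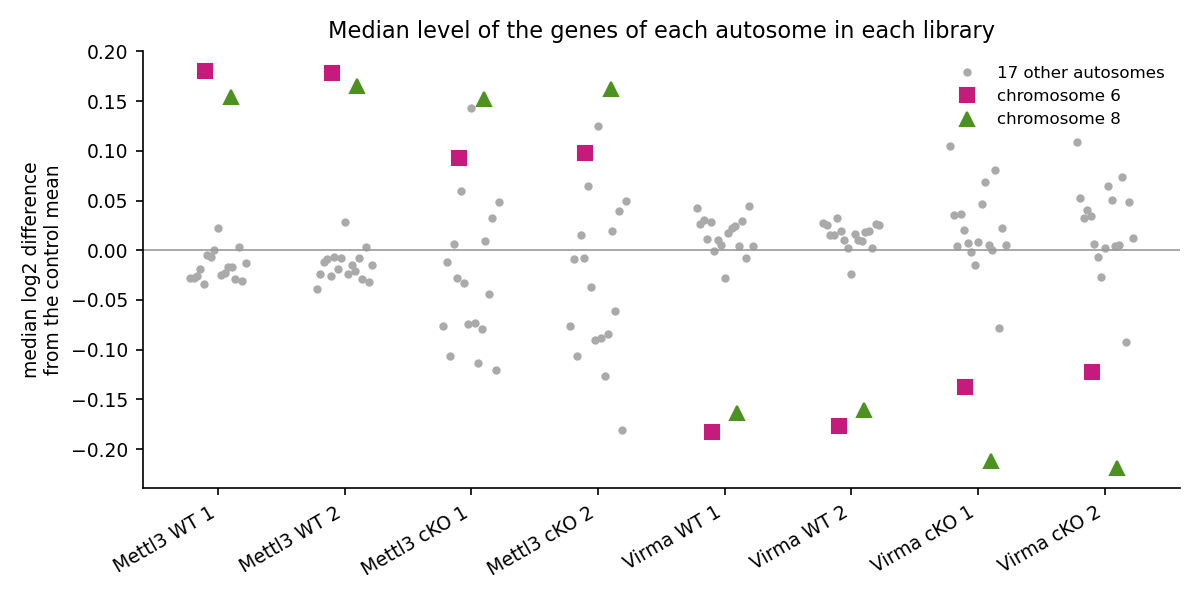
Median log2 difference from the mean of the 4 control libraries (vertical axis) for the genes of chromosome 6 (squares), chromosome 8 (triangles) and each of the 17 other autosomes (grey points) in the 8 libraries. In the control libraries both chromosomes sit at 0.15 to 0.18 in Mettl3 WT and at −0.18 to −0.16 in Virma WT, outside the other autosomes. The centre is the mean of both control groups, so the opposite signs do not show which line departed.

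Single genes of these chromosomes differed to unequal degrees. Asns, asparagine synthetase, on chromosome 6, stood at 12145 and 12210 scaled counts in Mettl3 WT and at 5640 and 5763 in Virma WT (−1.09, SE 0.02). Gapdh, the glycolytic enzyme often used as a reference gene, is also on chromosome 6 and went from 41100 and 41946 to 35123 and 35162 (−0.24, SE 0.02, limma adjusted p = 5.78e-18). Rpl32, a ribosomal protein on chromosome 6, was lower by −0.71 and Mvd, of cholesterol synthesis, on chromosome 8, by −1.07; Gapdh and Rpl32 have near-identical pseudogenes, so their counts are uncertain. Nanog, on chromosome 6, did not pass the test, with 2223 and 2307 against 2314 and 2243 scaled counts (0.01, SE 0.04, limma adjusted p = 0.87). Peg10, an imprinted gene on chromosome 6, went the other way, from 15058 and 14751 to 39266 and 38533 (1.38, SE 0.02), as did its neighbour Sgce (0.96, SE 0.14).

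Markers of primitive endoderm and of embryonic stem cells were present together in all 4 control libraries. Per kilobase of exon, Pou5f1 stood at 3694 scaled counts in Mettl3 WT and 4227 in Virma WT, Gata4 at 1019 and 922, and Lama1, a laminin chain of early basement membranes, at 6282 and 4729. The 9 transcription factors of primitive endoderm summed to 15112 and 14878 scaled counts in Mettl3 WT and 13394 and 13543 in Virma WT, a ratio of 0.898. The 22 naive and core pluripotency genes summed to 54217 and 54250 against 56056 and 56410, a ratio of 1.04.

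Among the endoderm transcription factors, 5 of 9 were lower in Virma WT, with a median of −0.14 beside 0.03 for all genes, or of −0.08 with a trend with length and GC content removed. Gata6, which starts the endoderm programme, held 2656 and 2456 scaled counts in Mettl3 WT and 1847 and 1791 in Virma WT. The groups were well apart, by −0.49 (SE 0.04, limma adjusted p = 1.92e-14), the widest difference in the list. Gata4, which acts after it, held 4035 and 3921 against 3571 and 3628, a smaller difference (−0.14, SE 0.03, adjusted p = 0.00035 in limma). Sox17 (706 and 795 against 591 and 655), Foxa2 (362 and 400 against 306 and 298) and Klf6 (2681 and 2508 against 2304 and 2371) were also lower. Sox7 (−0.08), Hnf4a (0.24) and Foxq1 (0.01) did not pass the test. None of the 9 genes of the list lies on chromosome 6 or 8.

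Several of these calls rest on a library. Without the second Mettl3 WT library 3 factors were lower, and Sox17 (−0.18, limma adjusted p = 0.21) and Foxa2 (−0.26, limma adjusted p = 0.17) were no longer called; Sox17 was also not called without the first Virma WT library (−0.19, limma adjusted p = 0.060). Klf6 was not called without the first Mettl3 WT library (−0.10, limma adjusted p = 0.19). Gata6 and Gata4 kept their calls in each of these fits.

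**Figure D4:**
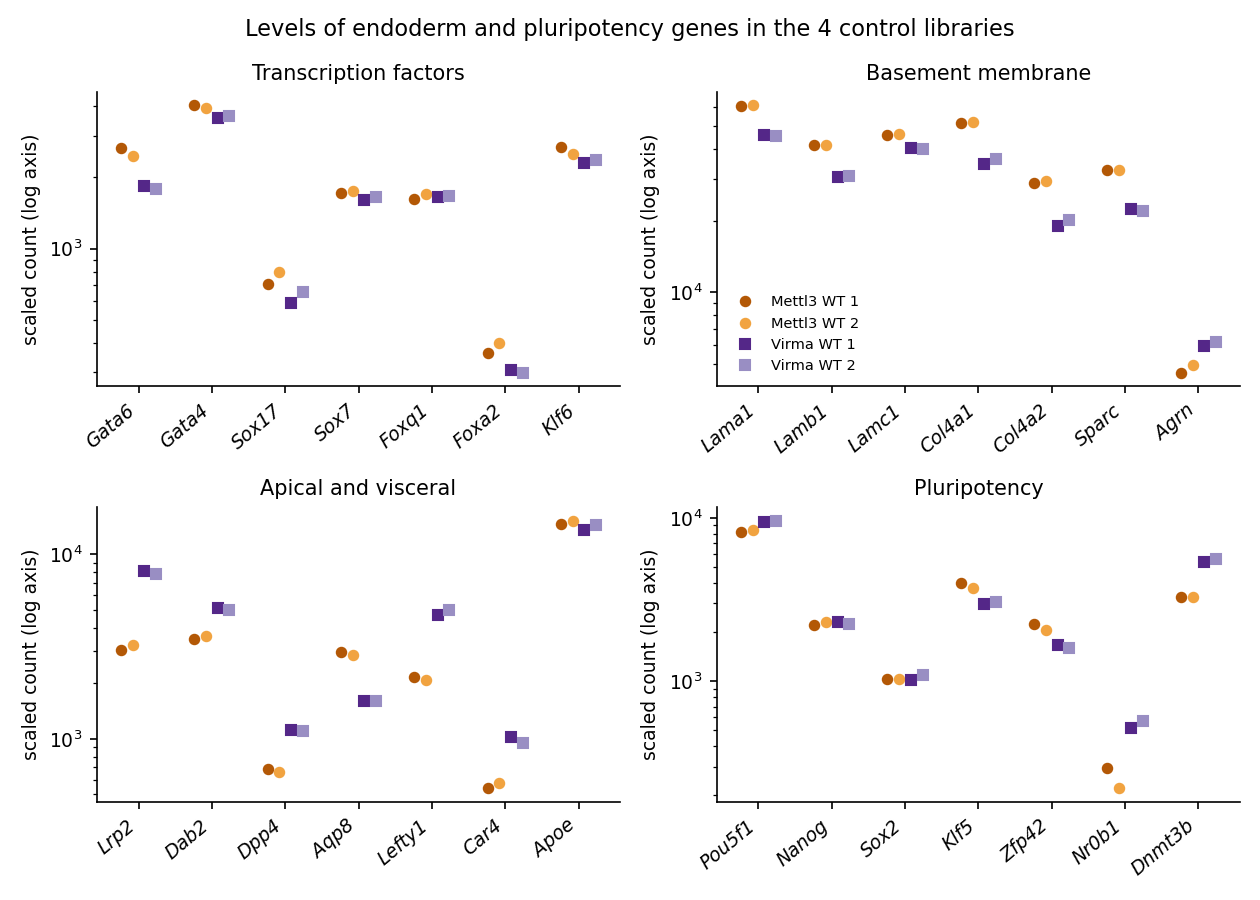
Scaled counts (log axis) of 28 genes in the 2 Mettl3 WT libraries (circles) and the 2 Virma WT libraries (squares), grouped by role. Gata6, the laminin and collagen IV chains and Aqp8 lie lower in Virma WT, Lrp2, Dab2, Lefty1 and Dnmt3b higher, and Nanog and Sox2 overlap.

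Of 10 tested receptors that carry the inducing signals, 4 were lower and 1 higher in Virma WT, so 5 of 10 were called, close to the 47.2% of all genes. The median of −0.02 had no stable sign: it was −0.13 without the first and 0.01 without the second Mettl3 WT library, −0.06 without the first and 0.03 without the second Virma WT library, and 0.01 without Fgfr1. Pdgfra, a surface marker of primitive endoderm, overlapped between the groups (3821 and 3758 against 3901 and 3755; 0.01, SE 0.04). Lifr, the LIF receptor, was lower (1460 and 1427 against 1020 and 996; −0.52, SE 0.06). Fgfr1 (−0.19) and Fgfr2 (−0.18), through which FGF4 acts on the inner cell mass, were lower by little, and Fgfr1 lies on chromosome 8. Fgfr2 was not called without the first or the second Mettl3 WT library (limma adjusted p = 0.10 and 0.084). In the former fit 2 receptors were lower, and in the latter none was higher.

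Most basement membrane genes were lower in Virma WT. Of 12 tested, 8 were lower and 3 higher in Virma WT, with a median of −0.32, and together they made up 1.79% of all scaled counts in Mettl3 WT and 1.36% in Virma WT. Lama1, the alpha chain, held 60606 and 61032 scaled counts in Mettl3 WT and 45971 and 45592 in Virma WT (−0.41, SE 0.02, limma adjusted p = 1.54e-32). The partner chains Lamb1 (−0.44) and Lamc1 (−0.19) were lower too. Col4a1 and Col4a2, neighbouring genes for the chains of collagen IV, held 51338 and 51905 against 34756 and 36149 (−0.54, SE 0.02) and 28914 and 29486 against 18904 and 20092 (−0.58, SE 0.02). Both lie on chromosome 8, where the median was −0.29. Sparc, a matrix protein that endoderm secretes in quantity, lies on chromosome 11 and was lower by as much (32653 and 32620 against 22270 and 21888; −0.56, SE 0.02). Agrn (0.35), Lama5 (0.16) and Nid2 (0.14) were higher and Nid1 (0.04) did not pass the test; Nid2 was not called without the first Mettl3 WT library (0.13, limma adjusted p = 0.088). Without the 2 collagen genes of chromosome 8, 6 of the other 10 were lower, 3 were higher and the median was −0.21.

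Genes that fold and export collagen were also lower. Of 14 tested, 10 were lower in Virma WT and none higher, with a median of −0.28, and none of the 14 lies on chromosome 6 or 8. Plod1, a collagen lysyl hydroxylase, stood at 2044 and 2172 scaled counts in Mettl3 WT and at 1169 and 1165 in Virma WT (−0.85, SE 0.05). Serpinh1, the collagen chaperone, was lower by −0.34, and the prolyl hydroxylase subunits P4ha1, P4ha2 and P4hb by −0.48, −0.38 and −0.25.

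Endocytic and apical genes were split. Of 14 tested, 6 were higher and 4 lower in Virma WT, with a median of 0.17. Lrp2, megalin, the large scavenger receptor of visceral endoderm, held 3033 and 3206 scaled counts in Mettl3 WT and 8103 and 7841 in Virma WT (1.35, SE 0.04, limma adjusted p = 6.53e-40). Its adaptor Dab2 was higher by 0.51 (3482 and 3609 against 5124 and 4998) and the peptidase Dpp4 by 0.71. The water channel Aqp8 was lower (2952 and 2837 against 1611 and 1600; −0.85, SE 0.04). Lrpap1, the chaperone of megalin (11521 and 12022 against 11665 and 12010), and the protease Ctsl overlapped between the groups.

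Of 18 visceral endoderm genes, 13 passed the filter; Afp, Ttr, Apoa1, Apoa4 and Cer1 did not. Among those tested 6 were higher and 5 lower in Virma WT, and values ran from −1.67 for Apom to 1.63 for Fgb. Lefty1, a Nodal inhibitor of the anterior visceral endoderm that stem cells also express, went from 2169 and 2089 scaled counts to 4680 and 4960 (1.18, SE 0.05). Ihh (87 and 88 against 164 and 173) and the carbonic anhydrase gene Car4 (540 and 574 against 1021 and 946) were higher as well. Fgb rests on 8 and 22 scaled counts in Mettl3 WT and was not called without the first of them (limma adjusted p = 0.074). Without the second Mettl3 WT or the first Virma WT library 3 visceral genes were lower. Of 11 parietal endoderm genes 2 were higher and 5 lower, and fewer were lower without the second Mettl3 WT library. Thbd was higher by 1.93 (SE 0.32, 41 and 14 against 101 and 119). Snai1 was lower by −0.63 (SE 0.10, 500 and 447 against 303 and 305). The keratin Krt8 was not called (6601 and 6719 against 6397 and 6515). Without Plat and Gdf15, on chromosome 8, 4 of 9 parietal genes were lower, 2 were higher and the median moved from −0.11 to −0.06.

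Naive and core pluripotency genes were split. Of 22 tested, 9 were higher and 5 lower in Virma WT, with a median of 0.03. Fewer were called higher without either Mettl3 WT library. The median was 0.05 without the second Mettl3 WT library, 0.06 without the first and 0.01 without the second Virma WT library. With a trend with length and GC content removed it was 0.06. Pou5f1, the core factor of pluripotent cells, was higher by 0.19 (8212 and 8394 against 9374 and 9629), while Sox2 (1030 and 1026 against 1017 and 1087) and Klf4 overlapped between the groups. Klf5, a naive factor, was lower (3969 and 3700 against 2977 and 3050; −0.35, SE 0.04), and Zfp42, on chromosome 8, by −0.40. The widest difference was that of Nr0b1, an X-linked repressor of stem cells (293 and 221 against 514 and 572; 1.07, SE 0.13).

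Of 15 formative and primed epiblast genes tested, 10 were higher and 2 lower in Virma WT, with a median of 0.66, and none lies on chromosome 6 or 8; without either Mettl3 WT library none was lower, and without the first Virma WT library 1 was. Dnmt3b, the de novo DNA methyltransferase, stood at 3257 and 3270 scaled counts in Mettl3 WT and at 5349 and 5564 in Virma WT (0.74, SE 0.04, limma adjusted p = 5.24e-26). Sall2, a zinc finger factor, went from 314 and 298 to 582 and 626. Fgf5, the marker of primed epiblast, was at 8 in both Mettl3 WT libraries, a few reads each, and at 68 and 66 in Virma WT. Otx2 did not pass the filter.

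**Figure D5:**
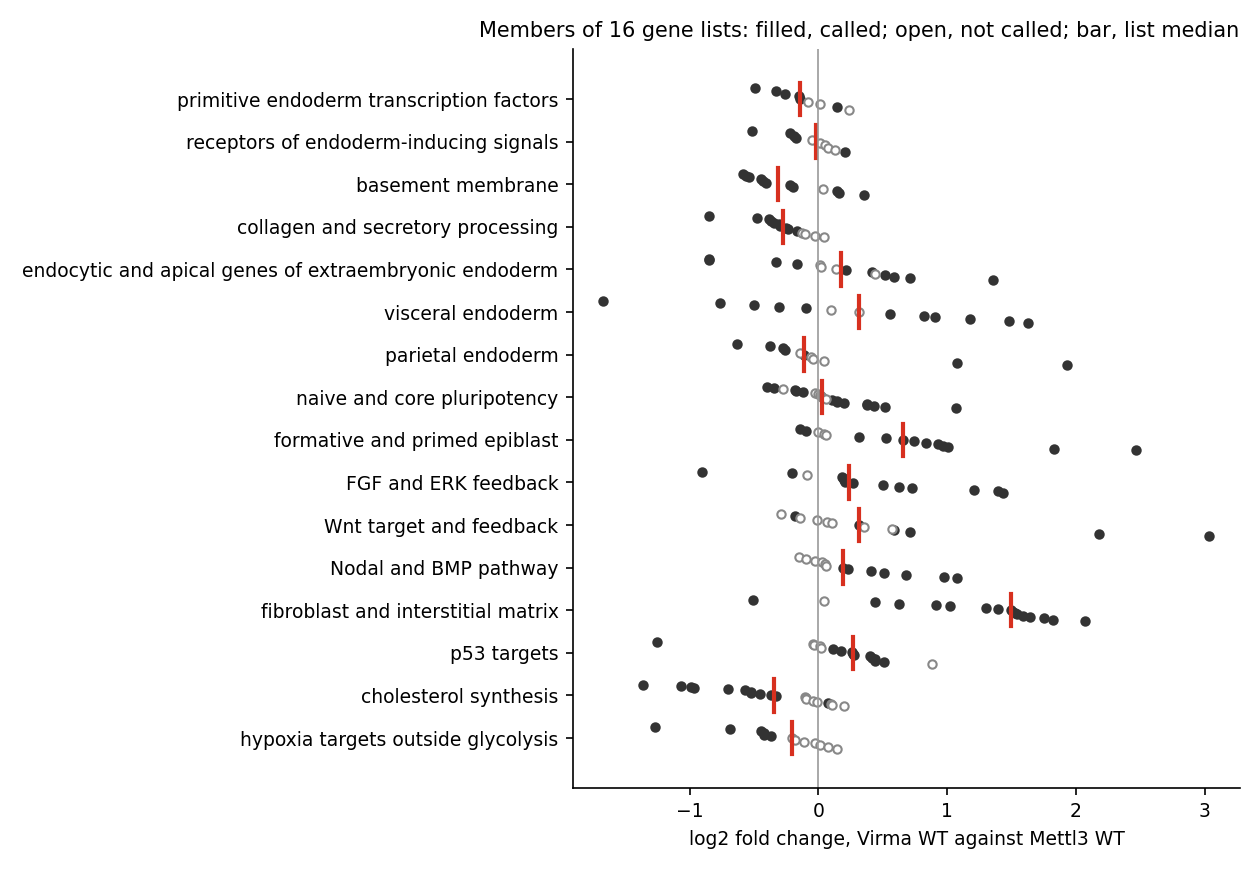
Log2 fold change, Virma WT against Mettl3 WT (horizontal axis), of each tested member of 16 gene lists (rows), with called genes filled, others open and a bar at the list median. Medians run from −0.35 for cholesterol synthesis to 1.49 for fibroblast and interstitial matrix genes.

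FGF and ERK feedback genes and targets were higher in Virma WT in 11 of 14 cases and lower in 2, with a median of 0.24. Some of these calls, in both directions, were lost without the second Mettl3 WT library. Il17rd, a membrane inhibitor of FGF receptors, went from 915 and 880 to 2127 and 2042 scaled counts (1.21, SE 0.07), and Spred1 from 703 and 753 to 1125 and 1124. Ccnd1, cyclin D1, went from 308 and 323 to 851 and 868 (1.43, SE 0.10). Phlda1 was lower (1302 and 1269 against 710 and 663; −0.90, SE 0.06). Immediate early genes were higher in 9 of 17 cases and lower in none, a share of 52.9%, with a median of 0.22; Fosb (0.54) and Myc (0.40) are examples. That count was 6 without the first and 4 without the second Mettl3 WT library.

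Of 13 Wnt targets and feedback genes 5 were higher and 1 lower in Virma WT, and the share called, 46.2%, was close to the 47.2% of all genes. Lef1, a Wnt-responsive transcription factor, was at 23 and 8 scaled counts in Mettl3 WT and at 150 and 158 in Virma WT (3.04, SE 0.36), and Sp5 at 20 and 30 against 123 and 134 (2.18, SE 0.31). Axin2, the feedback gene most often used as a readout of the pathway, was lower (999 and 941 against 835 and 878; −0.18, SE 0.07), a call lost without either Mettl3 WT library or the first Virma WT library (limma adjusted p = 0.32, 0.064 and 0.11). Cdx4 (20 and 14 against 153 and 163) and Cdx2 (56 and 47 against 260 and 252; 2.21, SE 0.23), caudal genes named here from the largest differences and the trophectoderm list, were higher too. Tpbpa and Prl3d1, defining markers of placental trophoblast, were at 0 in all 4 control libraries, and 3 of 12 tested trophectoderm genes were higher and 2, both on chromosome 6, lower, a share of 41.7% called.

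The Nodal and BMP list had 7 of 13 genes higher and none lower, a share of 53.8%, with a median of 0.19, or 0.12 without Gdf3, on chromosome 6. Lefty2, a Nodal target and inhibitor, went from 803 and 842 to 1605 and 1637 scaled counts (0.98, SE 0.07), and Id3, a BMP target, from 370 and 348 to 568 and 590. Retinoic acid genes split, 5 higher and 6 lower of 13, and 2 higher without either Mettl3 WT library. Without the 3 genes on chromosome 6, 5 of 10 were higher and 3 lower, and the median moved from −0.03 to 0.14; it was 0.05 with a trend with length and GC content removed, −0.10 with thinning, and −0.08 and 0.01 without the first and second Mettl3 WT library. Cyp26a1, an enzyme that breaks down retinoic acid, went from 4991 and 5058 to 1709 and 1723 (−1.55, SE 0.04, limma adjusted p = 4.24e-44). Cyp26b1, another such enzyme, on chromosome 6, was lower by −1.05. Stra8, induced by retinoic acid and also on chromosome 6, was lower by −0.55. In the LIF and STAT3 list 2 of 10 genes were higher and 4 lower, with values from −0.76 to 1.08. Its median of −0.02 had no stable sign, at −0.12 and 0.06 without the first and second Virma WT library. Socs3, a feedback inhibitor, went from 742 and 853 to 461 and 471 scaled counts (−0.76, SE 0.08).

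Fibroblast and interstitial matrix genes, markers of other cells, were higher in Virma WT in 15 of 17 cases and lower in 1, with a median of 1.49, and their summed level was 4547 and 4718 scaled counts in Mettl3 WT and 10510 and 10488 in Virma WT. Col1a1 went from 953 and 1032 to 2848 and 2823 (1.51, SE 0.06, limma adjusted p = 5.50e-30), Col3a1 from 492 and 444 to 1590 and 1585 (1.75, SE 0.09) and Dcn from 28 in both to 143 and 124; S100a4 was at 0 in all 4. The sums in the cKO libraries were 8353 and 8273 for Mettl3 and 24330 and 24130 for Virma. The list made up 0.027% of scaled counts in Mettl3 WT and 0.061% in Virma WT, and its part in the other differences was not tested. Primitive streak and mesoderm genes were higher in 4 of 9 cases and lower in none, a share of 44.4% called beside 47.2% of all genes, at low levels: T, the streak marker, was at 18 and 14 against 51 and 61 (1.53, SE 0.36) and the ligand Wnt3 at 25 and 25 against 93 and 97. Of 8 neuroectoderm genes 4 were higher, a count of 0 without the first Mettl3 WT library, 1 without the first Virma WT library and 2 with all libraries thinned to the shallowest. Germline genes were lower in 7 of 14 cases and higher in 1, a call lost without either Mettl3 WT library. Hormad1 was at 245 and 268 against 133 and 156. Without Stk31 and Dpep3, on chromosomes 6 and 8, 5 of 12 germline genes were lower and the median moved from −0.37 to −0.29. Epithelial adhesion genes were higher in 8 of 13 cases and lower in 3, with Cldn6 higher (760 and 817 against 1661 and 1689; 1.08, SE 0.07) and Cdh1, on chromosome 8, lower by −0.12; without the first Mettl3 WT library 5 were higher.

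Of 20 cholesterol synthesis genes 11 were lower and 1 higher in Virma WT, with a median of −0.35, or 9 of 18 lower with a median of −0.22 without those on chromosome 8; none was higher without any of 5 libraries, either of Mettl3 WT, the second of Virma WT and either of Virma cKO. Fdft1, squalene synthase, went from 6064 and 6012 to 4310 and 4100 scaled counts (−0.52, SE 0.03), Dhcr7 from 1822 and 1874 to 948 and 933 (−0.97, SE 0.05) and Srebf2, the activator of the pathway, was lower by −0.37. Hypoxia targets outside glycolysis were lower in 6 of 13 cases (46.2%) and higher in none, with Vegfa at −0.37. The lowest value of that list was of a gene on chromosome 8, Ankrd37 (−1.27, SE 0.15). In glycolysis 10 of 16 genes were lower and 5 higher, and 4 of the 16 lie on chromosome 6; without those 6 of 12 were lower and the median moved from −0.16 to −0.05. Pfkp, a phosphofructokinase, was lower (2911 and 3008 against 1449 and 1326; −1.09, SE 0.04) and Eno1 higher (27303 and 28139 against 39189 and 39813; 0.51, SE 0.02). The muscle isoform Pgam2 showed one of the widest differences of all, from 1728 and 1570 to 222 and 212 (−2.90, SE 0.08), while Pgam1 was higher by 0.53. Cytosolic ribosomal proteins were lower in 51 of 82 cases and higher in 10, with a median of −0.13, and nuclear respiratory chain subunits in 37 and 9 of 78, with a median of −0.11; both lists hold genes with near-identical copies that counting could split. With a trend with length and GC content removed 43 ribosomal protein genes were lower and 19 were higher, the median being −0.08, and 25 respiratory chain genes lower and 11 higher, with a median of −0.06. Without the first or second Mettl3 WT library 5 and 4 respiratory chain genes were higher.

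Targets of p53 were higher in Virma WT in 10 of 16 cases and lower in 1, with a median of 0.26; Cdkn1a, the inhibitor of cyclin-dependent kinases, went from 984 and 1029 to 1323 and 1358 scaled counts (0.41, SE 0.06). The exception was Eda2r, X-linked (443 and 453 against 193 and 178; −1.25, SE 0.11). Of 20 cell cycle genes 7 were higher and 8 lower (5 without the first Mettl3 WT library), with values from −0.30 to 0.49. Cdkn1b, which encodes p27 and lies on chromosome 6, was lower (594 and 604 against 296 and 288; −1.02, SE 0.09), as was the imprinted Cdkn1c (500 and 588 against 246 and 263; −1.07, SE 0.10). Imprinted genes differed in both directions, 9 higher and 7 lower of 19, with Plagl1 higher (839 and 737 against 1824 and 1983; 1.26, SE 0.07) and Grb10 lower (1896 and 1758 against 671 and 662; −1.45, SE 0.06). Of the 9 m6A writer genes 4 were higher and 1, Virma, lower, a share of 55.6% called beside 47.2% of all genes; Mettl14, the partner of Mettl3, did not pass the test (874 and 897 against 846 and 843). Among 16 readers and demethylases 7 were higher and 6 lower, with Ythdf2 higher by 0.56 and Fto, on chromosome 8, lower by −0.33; without the 4 genes on chromosomes 6 and 8, 7 of 12 were higher and 3 lower, and the median moved from −0.05 to 0.14.

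Genes of the Y chromosome had counts in both lines, at lower levels in Virma WT. All 5 that passed the filter were lower, with a median of −2.06, and lay between 5 and 40 scaled counts in Virma WT. At such low values, whether the Virma line expresses them was not tested. Eif2s3y, a translation factor subunit, was at 110 and 105 scaled counts in Mettl3 WT and at 10 and 8 in Virma WT (−3.01, SE 0.25, limma adjusted p = 7.77e-16). Ddx3y was at 163 and 201 against 40 and 39, Uty at 125 and 94 against 18 and 12, Kdm5d at 38 and 33 against 5 and 8, and Uba1y, added after its values were seen, at 48 and 41 against 22 and 22. In the cKO libraries Eif2s3y was at 66 in both of Mettl3 and at 22 in both of Virma.

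Mitochondrially encoded genes were higher in Virma WT in 7 of 13 cases and lower in 1 (none without the first Mettl3 WT library). The abundant mt-Co1 went from 98318 and 95131 to 117220 and 111266 scaled counts (0.24, SE 0.03), and mt-Cytb did not pass the test. The widest gap was in mt-Nd3, a complex I subunit, at 5 and 0 in Mettl3 WT, a few reads at most, and at 366 and 341 in Virma WT; it was at 17 and 12 in Mettl3 cKO and at 658 and 607 in Virma cKO. mt-Co2 (36 and 14 against 134 and 118), mt-Atp6 (61 and 55 against 222 and 250) and mt-Co3 (10 and 25 against 68 and 59) were higher too. Per kilobase mt-Co2 stood at 36.5 scaled counts in Mettl3 WT and 184 in Virma WT, against 62605 and 73944 for mt-Co1. Nuclear copies of mitochondrial sequence and the overlap of mt-Atp6 with mt-Atp8 make these counts uncertain; how reads with several positions were treated was not stated in the sources used here.

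Few genes were found in 1 control group alone. At a minimum of 10 scaled counts in each library of the group that had them, 6 genes were detected in Virma WT only and none in Mettl3 WT only. They were Btla (17 and 17), Gzme (14 and 17), Tgm7 (15 and 12), Il18rap (14 and 11), Dhrs9 (10 and 12) and Tnfsf15 (10 and 10), each at 0 in both Mettl3 WT libraries. All 6 also had values above 0 in both Mettl3 cKO libraries, between 2 and 11. The smallest value above 0 in Mettl3 WT was 3, so such levels lie near what its depth can show. Among genes with an average log2 value of at least 2, the largest values in Virma WT over Mettl3 WT beside those named included the chemokines Ppbp (8 and 6 against 101 and 97; 3.12, SE 0.40) and Ccl7 (5 and 17 against 89 and 85), the EGF-like ligand Ereg (15 and 6 against 76 and 79) and the interleukin-33 receptor Il1rl1 (18 and 19 against 151 and 157; 2.76, SE 0.34). The largest in the other direction beside Pgam2 and the Y genes included the protease Capn11 (117 and 108 against 14 and 10), Pramel7, an oocyte and embryo gene (84 and 91 against 11 and 11), and the receptor Ffar3 (176 and 232 against 39 and 49).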

How the data were processed

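The 8 libraries of mouse embryonic stem cells fall into 4 groups of 2 by their titles, and the contrast is Virma WT minus Mettl3 WT. TRIzol was used for extraction, and a SMARTer Stranded and a VAHTS kit for the libraries, per the labels' protocols. The build mm39 and the tools STAR 2.7.11b, FastQC 0.12.1, DESeq2, Subread and Trim Galore are named, without their roles, per the submitters' processing notes; the sources used here do not state the annotation or strand setting. The deposited table is named as counts, but the values fit counts multiplied by 1 factor per library and rounded, so they were treated as a score made by the authors, called scaled counts here, and limma took the place of the planned count test. The factors were estimated from gaps between low values.

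Values were analysed as log2(value + 5) after the filter of 25, with limma 3.58.1 in R 4.3.3, weights from the counting error at the estimated depth plus a constant, robust moderation, 1 spread for all 4 groups and Benjamini-Hochberg adjustment over 12910 genes at 0.05. Each pair of a group differed by more than counting noise (chi-square per degree of freedom 1.08 in Mettl3 WT, 1.91 in Virma WT), so all 8 libraries stayed separate. The fit was also run on simulated data in which few genes changed, unlike here, so that run does not show how it performs on these data. Fold changes of low genes are understated by the pseudocount. The named genes are Mettl3 and Virma, the 12 largest differences in each direction among called, non-overlapping genes with an average log2 value of at least 2, without predicted genes and clone names, all tested members of 5 lists, up to 8 of each other list, and genes found in 1 group only, 305 in all, of which some are not reported here. The members and the 40 lists were chosen with earlier results of these data known, and 1 list, small noncoding RNAs, had no gene in the table. Chromosomes came from GENCODE M21 on GRCm38 (21144 symbols matched directly, 427 through another name, 241 not). Python 3 with pandas and matplotlib made the summaries and figures. Alternatives were other scalings, filters, thresholds and pseudocounts, no weights, removal of gene classes or of a trend with length and GC content, thinning, the replicate number as a block, and leaving out each library.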

Additional observations from a re-analysis of the deposited data

How the results depend on the processing

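The number of genes that differed, 6091, was 6073 with scaling by total, 6104 with median of ratios factors and 6355 with the replicate number as a block, and it was within 1.5 times the reported count in every fit run except with the 2-fold minimum: 569 genes, 382 higher and 187 lower. Leaving out each library gave 4187 to 6141 genes in all, 2105 to 3288 higher and 2082 to 2853 lower, the lowest without the first Mettl3 WT library. With scaling by total 3088 were higher and 2985 lower. Genes detected in Virma WT only numbered 32 at a minimum of 5 and 0 at a minimum of 20. Of 305 named genes none reversed; 42 lost their call without the first Mettl3 WT library, 32 without the second, 15 and 6 without the first and second Virma WT library, and 21 with thinning; the cause was not tested. Same-numbered libraries showed little shared deviation (r from −0.01 to 0.06 between groups, over 12910 genes). Counting noise is part of these deviations, so low correlations cannot show whether the numbers pair the libraries. Unweighted limma (7082 genes), pseudocounts of 1 and 20, trimmed mean factors, thinning to the shallowest library (5301), the lists without chromosomes 6, 8 and Y, and the chromosome medians were chosen after seeing the data. The planned tests of edgeR and DESeq2 were not run, since the values are not counts; the planned upper quartile factors are the deposited scaling, and 8 separate libraries are the reported fit. Depth limits low genes: a read is worth 2.55 and 2.76 scaled counts in Mettl3 WT and 0.676 and 0.689 in Virma WT.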
